A study of Mus musculus with 11 samples.

Results

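The Fat, Dachsous and Celsr genes encode cadherins that are among the largest of the mouse. Fat1, Fat2, Fat3, Fat4, Dchs1, Celsr1, Celsr2 and Celsr3 were taken by symbol from a table of RNA fragments that were recovered with FMRP, the protein whose loss causes Fragile X syndrome, and all 8 symbols were found among its 30986 rows. FMRP was immunoprecipitated from crosslinked brain tissue of mice at postnatal day 13, and the recovered RNA was sequenced. The 9 samples comprised 2 of cerebellum, 3 of cortex and 4 of hippocampus. Cortex and hippocampus together are called forebrain here. The labels give no strain, genotype, sex or treatment other than crosslinking for any region, and nothing in them tells separate animals from repeat preparations. The p-values therefore refer to the spread among these samples, part of which may be technical.

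Total counts were 95454 and 197382 in the cerebellum samples, 11898 to 55784 in cortex and 21531 to 130306 in hippocampus. The deepest hippocampus sample is the sum of 2 libraries whose counts did not differ beyond the sampling noise and which were counted as 1 sample, named hippocampus 1+2. A count of 3, the limit that a count of 0 allows, was 15.2 CPM (counts divided by the library total, times 1000000) in cerebellum 2 and 252 CPM in cortex 3, so levels of the shallow forebrain samples are imprecise. Counts on predicted genes, the rows whose symbol begins with Gm, made up 12.2 to 12.6% of cortex 3, hippocampus 3 and hippocampus 4, against 3.10 to 7.49% of the other 6 samples. One further library carried labels for both cortex and hippocampus and was in no comparison. Of the cell type markers, the summed CPM of 15 granule cell markers other than Fat2 was 3782 ± 118 in cerebellum (SD, n = 2) and 566 ± 211 in forebrain (SD, n = 7), and that of 12 telencephalic excitatory neuron markers was 365 ± 71.5 CPM in cerebellum and 2164 ± 688 CPM in forebrain.

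Fat cadherins are single-pass membrane proteins with very long runs of cadherin repeats. Fat4 binds Dchs1 on the neighbouring cell, and in Drosophila the equivalent pair, Fat and Dachsous, aligns cells within a sheet and restrains growth through the Hippo pathway. The Celsr proteins are seven-pass cadherins that also belong to the adhesion G protein-coupled receptors. They are the mammalian counterparts of Drosophila Flamingo and bind each other across cell borders as part of the core planar polarity pathway, with Frizzled, Vangl, Prickle and Dishevelled proteins. In the brain, planar polarity genes are known for the guidance of axon tracts, the migration of neurons and the alignment of cilia. FMRP is known to bind long brain mRNAs, largely along their coding sequence, and to slow their translation.

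The members are unusually long mRNAs. In the GENCODE M21 annotation of build GRCm38, the assembly also called mm10, their longest transcripts ran from 10598 bases (Celsr2) to 18760 bases (Fat3). They stood at percentile 87.7 to 99.0 of the 1670 tested rows with a transcript length, whose median was 6324 bases. Between 72.8% (Fat3) and 94.1% (Fat1) of each transcript was coding. Motif words were counted on the sense strand of the coding sequence with overlaps allowed. The 4 words searched, known from sites that FMRP binds in human cells, form 2 kinds. The purine-rich kind is written AGGA or, with its first base replaced, TGGA. The other kind is written ACTG or, with its last base replaced, ACTT. Celsr2 had 20.1 matches per kilobase and Fat3 had 27.0, the ends of the members' range, against a median of 24.5 over 1634 tested rows. The members lay at percentile 14.1 to 72.3 of these rows and thus on both sides of the median.

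The coding stretches below are from the 3 members that rose in cerebellum and from Celsr2, the member with the highest level in cortex and hippocampus. Each is the 120-base window, within 1 coding exon, that holds the most matches to those words, and the capitals mark the matches. All were read from GRCm38 on the gene's own strand. The Fat1 window is chr8:45031322-45031441 on the plus strand in exon 14 of 29, the Fat2 window is chr11:55309732-55309851 on the minus strand in exon 2 of 24, the Celsr2 window is chr3:108413165-108413284 on the minus strand in exon 1 of 34, and the Celsr3 window is chr9:108829349-108829468 on the plus strand in exon 1 of 36.
Fat1: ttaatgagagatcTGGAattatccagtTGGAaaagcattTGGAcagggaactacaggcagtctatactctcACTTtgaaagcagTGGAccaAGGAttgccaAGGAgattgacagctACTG
Fat2: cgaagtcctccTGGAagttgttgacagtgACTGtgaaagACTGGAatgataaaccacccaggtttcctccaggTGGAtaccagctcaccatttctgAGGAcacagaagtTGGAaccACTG
Celsr2: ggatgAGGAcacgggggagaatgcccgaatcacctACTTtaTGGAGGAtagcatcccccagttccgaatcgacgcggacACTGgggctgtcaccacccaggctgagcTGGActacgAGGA
Celsr3: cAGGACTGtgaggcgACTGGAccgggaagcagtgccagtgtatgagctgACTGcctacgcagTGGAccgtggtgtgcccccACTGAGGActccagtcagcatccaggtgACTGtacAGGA
The Celsr3 window held 10 matches, the Fat1 and Fat2 windows 8 each and the Celsr2 window 7. Among 34805 windows of this length that tile the coding exons of the tested rows without overlap, 0.230% held at least 10 matches, 1.32% at least 8 and 3.25% at least 7. The printed windows were picked as the richest of each gene and the tiled windows were not, so the shares describe how common such stretches are and are no test. The table gives fragments per gene without positions, so where fragments fell within these transcripts was not analysed here.

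Fat2, Fat1 and Celsr3 were each several-fold higher in cerebellum than in forebrain, and 0 of the members passed the test between cortex and hippocampus. Across the table, 132 of 1720 tested rows passed an adjusted p of 0.05 between cerebellum and forebrain (edgeR's quasi-likelihood test with Benjamini-Hochberg adjustment), which is 7.67%. Of these, 67 rows were higher in cerebellum, which is 3.9%, and 65 were lower, which is 3.78%. Celsr1 was too low to be tested, and 3 of the 7 other members passed, each of them higher. The background between cortex and hippocampus was 0.0%, with 0 rows past adjustment by edgeR, 68 rows at an unadjusted p under 0.05 and 1 call by DESeq2.

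**Figure D1:**
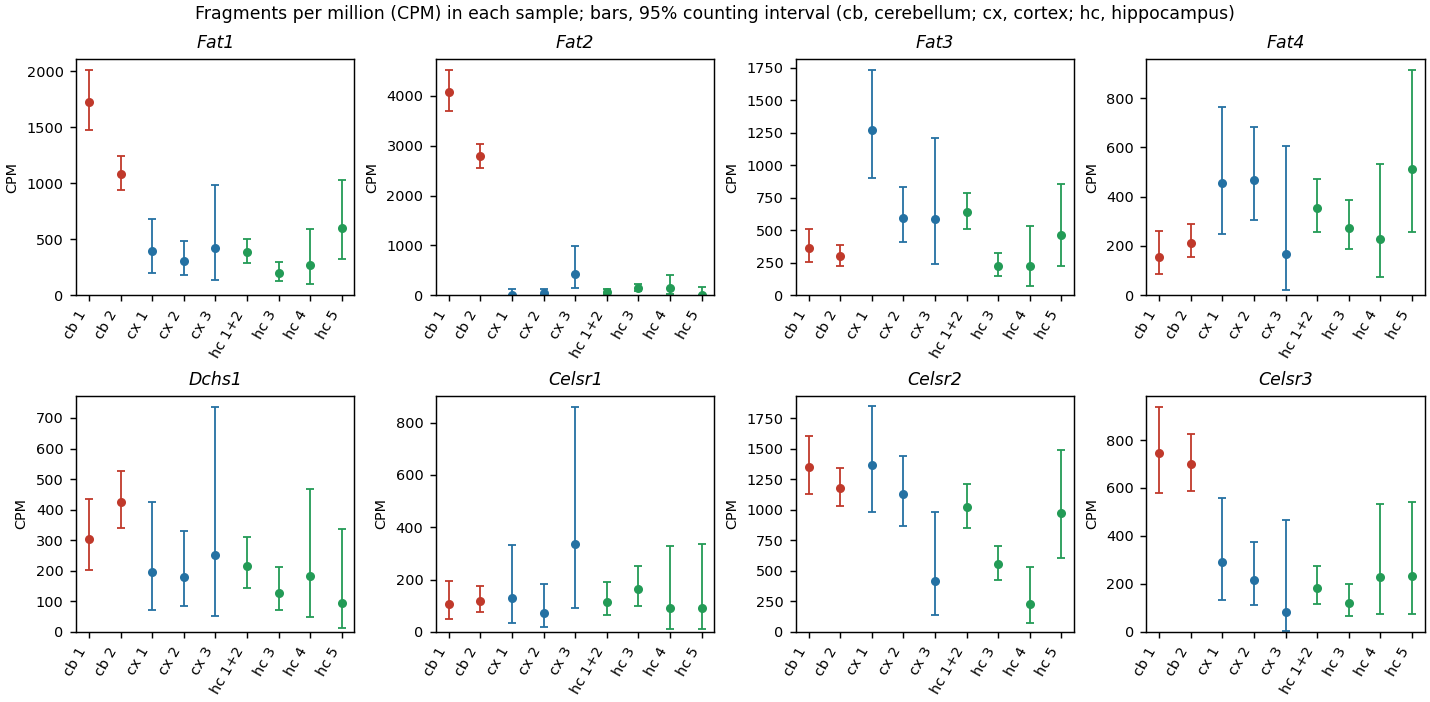
Level of each giant cadherin in every sample, in CPM, with cerebellum in red, cortex in blue and hippocampus in green, and bars that give the exact 95% interval for counting error. The cerebellum points lie above all forebrain points for Fat1, Fat2, Celsr3 and Dchs1, and the groups overlap for the other 4 genes. The library labelled both cortex and hippocampus is not drawn.

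Fat2, on chromosome 11 and known in the rodent brain as a cadherin of cerebellar granule cells and their parallel fibres, was the most cerebellar of the members. It had 390 and 550 counts in the cerebellum samples, or 4086 and 2786 CPM, against 0, 35.9 and 420 CPM in cortex and 61.4, 136, 137 and 0 CPM in hippocampus. It ranked 2nd of all rows in cerebellum 1 and 5th in cerebellum 2. The lowest cerebellum sample thus lay far above the highest forebrain sample, and that forebrain sample, cortex 3, rested on 5 counts with an exact 95% interval of 136 to 980 CPM. Cerebellum averaged 3436 ± 919 CPM (SD, n = 2), cortex 152 ± 233 CPM (SD, n = 3) and hippocampus 83.6 ± 66.1 CPM (SD, n = 4). The log2 fold change of Fat2, cerebellum over forebrain, was 5.42 (SE 0.62, adjusted p = 6.65e-15, edgeR). Fat2 had enough counts for the test through the cerebellum samples, so that it was called is no support beyond the levels themselves.

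The Fat2 call was not kept by every setting. DESeq2 gave a similar log2 fold change of 5.75 with an adjusted p of 0.0989, and edgeR without the filter on low counts gave 5.85 with an adjusted p of 0.111. Without cerebellum 1 the value was 4.05 (adjusted p = 0.0605), and without cortex 1 it was 4.48 (adjusted p = 0.0602, both edgeR). Fat2 was more abundant in the 3 forebrain samples rich in predicted genes, at 136 to 420 CPM, than in the other 4, at 0 to 61.4 CPM. The part of predicted-gene counts in this difference was not tested. Without those 3 samples, and without the title code in the model, the log2 fold change was 6.77 (adjusted p = 4.58e-07, edgeR).

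The difference in Fat2 came with granule cell markers. Of the 15 listed markers 4 had enough counts to be tested, and these rose in cerebellum (edgeR): Grm4, a metabotropic glutamate receptor of parallel fibre terminals, by 4.04 on the log2 scale (SE 0.54, adjusted p = 8.43e-11), Chn2, a Rac GTPase-activating protein, by 3.25, Cadps2, a secretory vesicle protein, by 2.50, and Zic1, a transcription factor of the granule lineage, by 2.30. A marker low in forebrain can pass the filter on counts through cerebellum alone, so the share of tested markers that rose is no support. The summed level of all 15 uses no filter, but the list was chosen with earlier results of these data known. Gabrd, Tlx3 and Atoh1 had lower means in cerebellum (20.8, 10.3 and 0 CPM) than in forebrain (30.5, 17.0 and 4.75 CPM), and the other listed markers had higher means there. Grm4 averaged 1253 ± 139 CPM in cerebellum and 94.5 ± 60.8 CPM in forebrain (SD, n = 2 and 7). Without cerebellum 1 the calls of these 4 markers ended, with adjusted p from 0.0611 (Grm4) to 0.892 (Zic1). Those of Cadps2, Zic1 and Chn2 also ended without cerebellum 2 (adjusted p = 0.0529, 0.105 and 0.432) and without cortex 1 (0.196, 0.651 and 0.243). Atoh1, a marker of granule cell precursors, was at 0 in both cerebellum samples. How far the number of granule cells, the RNA per cell and the binding by FMRP each entered the level of Fat2 cannot be told apart in these bulk samples, for which no input RNA was analysed here, and this holds for every member below.

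Fat1, on chromosome 8, is known to organise actin at cell edges through Ena/VASP proteins and to act in cell migration. It reached 1729 and 1084 CPM in the cerebellum samples, against 391, 305 and 420 CPM in cortex and 384, 196, 273 and 604 CPM in hippocampus. Both cerebellum samples were above every forebrain sample, and the cortex samples lay within the wider range of hippocampus. The mean was 1406 ± 456 CPM in cerebellum (SD, n = 2) and 368 ± 130 CPM in forebrain (SD, n = 7), and the log2 fold change was 2.23 (SE 0.48, adjusted p = 0.000245, edgeR). The call ended without cerebellum 1 (2.23, adjusted p = 0.473), without cerebellum 2 (2.38, adjusted p = 0.0529), without cortex 1 (2.33, adjusted p = 0.228) and when rows of low counts were kept (2.59, adjusted p = 1).

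Fat3, on chromosome 9, shapes the dendrites of retinal amacrine cells in mice. It had 367 and 299 CPM in cerebellum, against 1269, 592 and 588 CPM in cortex and 637, 222, 228 and 464 CPM in hippocampus. Cortex 1 was the highest sample, and both cerebellum samples lay within the range of hippocampus. The log2 fold change between cerebellum and forebrain was -0.87 (SE 0.49, adjusted p = 0.351, edgeR). Between cortex and hippocampus it was 0.73 (SE 0.46, adjusted p = 0.999), the largest such value in favour of cortex among the members, with an exact two-sided permutation p of 0.114 on CPM over 35 splits, where the smallest p possible is 0.0286.

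Fat4, on chromosome 3, is the receptor for Dchs1 and acts in neural precursors of the mouse cortex. It had 157 and 213 CPM in cerebellum, against 456, 466 and 168 CPM in cortex and 353, 273, 228 and 511 CPM in hippocampus. Cortex 3, which rested on 2 counts, was the only forebrain sample as low as cerebellum. For Fat4 the log2 fold change was -1.05 between cerebellum and forebrain (SE 0.53, adjusted p = 0.264, edgeR) and -0.03 between cortex and hippocampus (adjusted p = 0.999). Fat3 and Fat4 thus had lower fitted levels in cerebellum, and the difference of neither passed the threshold.

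Dchs1, on chromosome 7, encodes the ligand of Fat4. Its levels were 304 and 426 CPM in cerebellum, against 195, 179 and 252 CPM in cortex and 215, 128, 182 and 92.9 CPM in hippocampus. Cerebellum lay above every forebrain sample compared, with a mean of 365 ± 86.1 CPM (SD, n = 2) against 178 ± 53.1 CPM in forebrain (SD, n = 7). The log2 fold change of 0.87 (SE 0.54) did not pass the test across the table (adjusted p = 0.446, edgeR). The library labelled both cortex and hippocampus, which was in no comparison, had 363 CPM of Dchs1, above cerebellum 1. The separation of Dchs1 thus holds only with that library left out. The exact two-sided permutation p of Dchs1 alone, also without that library, was 0.0278, which is the smallest that 36 splits allow. Fat1, Fat2 and Celsr3 reached the same smallest p. Both cerebellum samples lay above all forebrain samples in 9.3% of the tested rows and below them in 4.3%. Rows high in cerebellum alone can pass the filter on counts, so these shares depend on it. The ligand and its receptor Fat4 had fitted changes of opposite sign, and neither was called.

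Celsr3, also on chromosome 9, guides major forebrain axon tracts in mice together with Fzd3. It had 744 and 699 CPM in cerebellum, against 293, 215 and 84.0 CPM in cortex and 184, 119, 228 and 232 CPM in hippocampus. The cerebellum samples were close to each other and both exceeded every forebrain sample. Means were 722 ± 31.6 CPM in cerebellum (SD, n = 2) and 194 ± 71.4 CPM in forebrain (SD, n = 7). Celsr3 rose by 1.94 on the log2 scale (SE 0.50, adjusted p = 0.00354, edgeR). The call ended when library totals alone were used for scaling (2.02, adjusted p = 0.0702), with rows of low counts kept (2.28, adjusted p = 1), without cerebellum 1 (2.17, adjusted p = 0.556), without cerebellum 2 (1.92, adjusted p = 0.215) and without cortex 1 (2.31, adjusted p = 0.191).

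Celsr2, on chromosome 3, acts with Celsr3 in the cilia of ependymal cells and in neuronal migration. It was abundant in all 3 regions, with 1351 and 1180 CPM in cerebellum, against 1367, 1129 and 420 CPM in cortex and 1021, 554, 228 and 975 CPM in hippocampus. The cerebellum samples fell inside the forebrain range, and the log2 fold change was 0.35 (SE 0.49, adjusted p = 0.832, edgeR). Within forebrain, the 3 samples rich in predicted genes had the 3 lowest levels, 228 to 554 CPM, and the other 4 had 975 to 1367 CPM. The part of predicted-gene counts in this difference was not tested. Summed CPM of 12 ependymal and choroid plexus markers were 459 ± 131 in cerebellum (SD, n = 2) and 733 ± 283 in forebrain (SD, n = 7).

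Celsr1, on chromosome 15, aligns hair follicles and ependymal cells in mice and was the least abundant member in cerebellum. It had 10 and 23 counts in cerebellum, or 105 and 117 CPM, against 130, 71.7 and 336 CPM in cortex and 115, 162, 91.1 and 92.9 CPM in hippocampus. All but 1 of these levels lay between 71.7 and 162 CPM, and the exception, cortex 3, rested on 4 counts. The exact two-sided permutation p was 0.639 between cerebellum and forebrain and 0.543 between cortex and hippocampus. Celsr1 had no edgeR test, and its counts give each sample a wide interval.

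**Figure D2:**
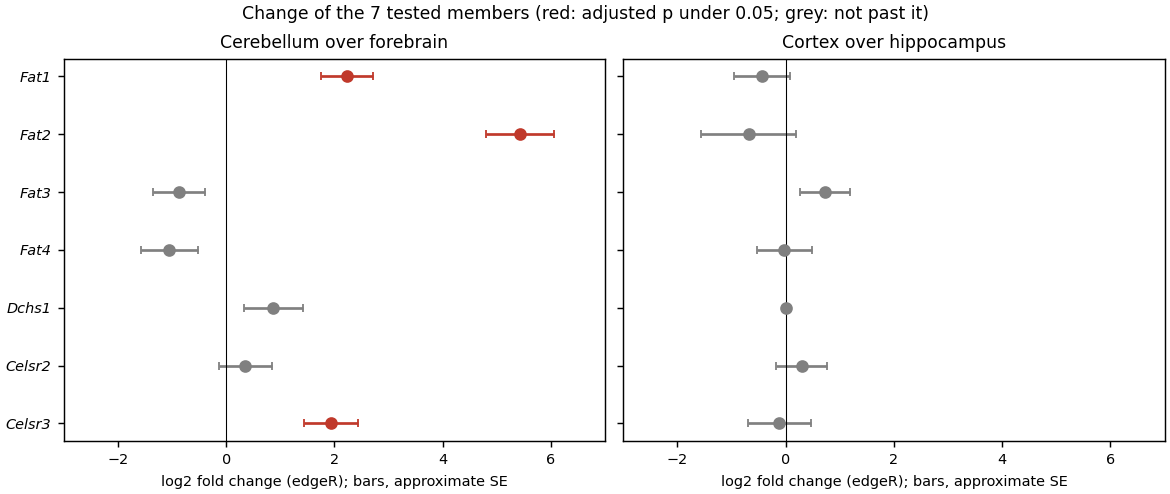
Log2 fold change of the 7 tested members in edgeR, cerebellum over forebrain on the left and cortex over hippocampus on the right, with bars that give the approximate SE and red for an adjusted p under 0.05. Fat2, Fat1 and Celsr3 are red on the left at 5.42, 2.23 and 1.94, no gene is red on the right, and no bar is drawn for Dchs1 on the right because its SE cannot be had so near a change of 0.

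Set against cortex alone and against hippocampus alone, the same 3 genes passed both times. Against cortex, 79 of 1720 rows were called (4.59%, with 2.21% higher and 2.38% lower), and the log2 fold changes were 5.77 for Fat2 (adjusted p = 5.87e-07), 2.45 for Fat1 (adjusted p = 0.00445) and 1.99 for Celsr3 (adjusted p = 0.0469). Against hippocampus, 110 rows were called (6.4%, with 3.08% higher and 3.31% lower), and the values were 5.08 for Fat2 (adjusted p = 8.77e-14), 2.01 for Fat1 (adjusted p = 0.00154) and 1.88 for Celsr3 (adjusted p = 0.00529, all edgeR). The cerebellum samples are shared by both sets. Fewer of these calls held when samples were left out: Celsr3 against cortex passed in 1 of 9 such fits, Fat1 against cortex in 3 of 9 and Fat2 against cortex in 7 of 9, where it failed without cerebellum 1 (4.22, adjusted p = 0.340) and without cortex 1 (4.03, adjusted p = 0.682). Against hippocampus, Fat2 passed in 9 of 9 such fits, Fat1 in 5 of 9 and Celsr3 in 4 of 9. DESeq2 ended both Fat2 calls (adjusted p = 0.205 against cortex and 0.110 against hippocampus) and that of Celsr3 against cortex (0.0872). Library totals alone ended those of Fat1 (0.172 and 0.0665) and Celsr3 (0.318 and 0.0665), and without the filter on low counts all 6 calls ended, with adjusted p of 0.128 for Fat2 against hippocampus and 1 for the others.

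The samples also differ in the numeric code of their titles, whose meaning the labels do not give, so ratios were taken within a code. Cerebellum 1 shares a code with cortex 1 and hippocampus 1+2, and cerebellum 2 with hippocampus 3. The log2 ratio of CPM, cerebellum over forebrain, was 7.06 in the first code and 4.35 in the second for Fat2, 2.16 and 2.47 for Fat1, and 1.64 and 2.55 for Celsr3. These 3 genes were several-fold higher in cerebellum within both codes. Dchs1 had 0.57 and 1.74, and Celsr2 had 0.18 and 1.09. For Fat3 the ratio was -1.38 in the first code and 0.43 in the second, and for Fat4 it was -1.36 and -0.36. Fat3 thus changed sign between the codes, while Fat4 was lower in cerebellum in both. Between cortex and hippocampus, the log2 ratio of Fat3 was 0.995 and 0.77 in the pair of codes that hold both regions, and that of Celsr3 was 0.67 and -0.62.

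The members took up 0.884% and 0.680% of all fragments in cerebellum, against 0.269 to 0.410% in cortex and 0.159 to 0.297% in hippocampus. Summed over all 8, the level was 7823 ± 1441 CPM in cerebellum (SD, n = 2) and 2730 ± 841 CPM in forebrain (SD, n = 7). Without Fat2, the sum of the other 7 was 4387 ± 522 CPM in cerebellum and 2617 ± 906 CPM in forebrain, and the highest forebrain sample, at 4101 CPM, passed the lower cerebellum sample, at 4018 CPM. The make-up of the family also differed. Fat2 contributed 46.2% of the 844 member fragments of cerebellum 1 (exact 95% interval 42.8 to 49.6) and 41.0% of the 1343 of cerebellum 2 (38.3 to 43.6), against 0 to 15.6% in the forebrain samples. Celsr2 made up 15.3% and 17.3% in cerebellum. In forebrain it made up 30.9 to 37.7% in 5 samples, and 15.6% and 14.3% in cortex 3 and hippocampus 4, which held only 32 and 35 member fragments.

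**Figure D3:**
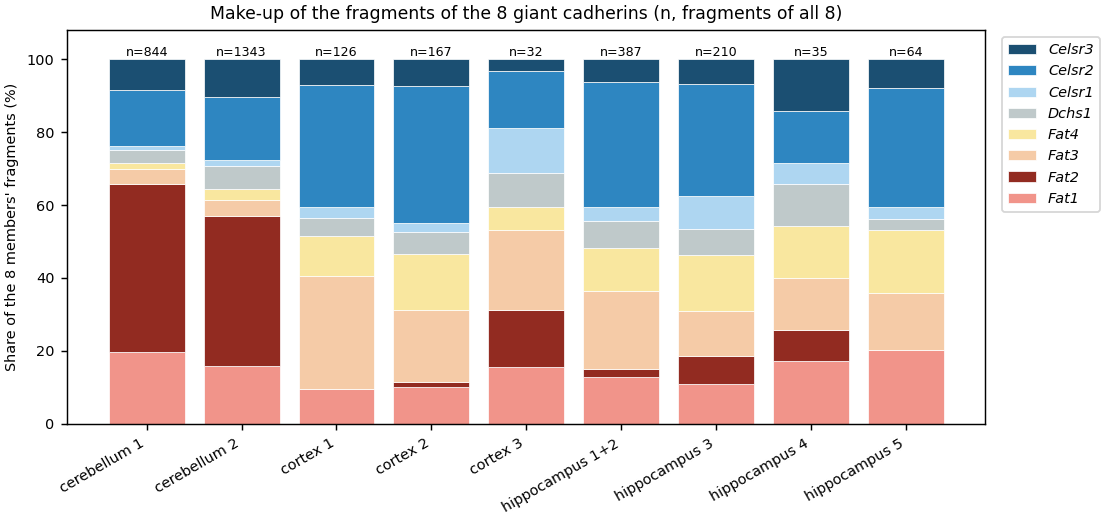
Share of each gene in the fragments of the 8 giant cadherins, in percent, per sample, with the number of member fragments above each bar. Fat2 is the largest segment in both cerebellum samples, at 46.2% and 41.0%, and Celsr2 is at 30.9% or more in 5 of the 7 forebrain samples.

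Levels of different genes were compared per kilobase of the longest transcript. In cerebellum the order was Fat2 at 237 ± 63.2, Celsr2 at 119 ± 11.4, Fat1 at 94.9 ± 30.8, Celsr3 at 62.4 ± 2.73, Dchs1 at 33.9 ± 8.01, Fat3 at 17.7 ± 2.55, Fat4 at 11.5 ± 2.44 and Celsr1 at 10.2 ± 0.76 CPM per kilobase (SD, n = 2). The ranges of Celsr2 and Fat1 overlapped, as did those of Fat4 and Celsr1, and the other neighbours in this order were apart in both samples. In cortex Celsr2 came first at 91.7 ± 46.5 CPM per kilobase, followed by Fat3 at 43.5 ± 20.9 and Fat1 at 25.1 ± 4.05 (SD, n = 3). Fat2 was last in cortex at 10.5 ± 16.0 CPM per kilobase. Fat3 and Fat1 were the only neighbours in the cortex order whose ranges did not overlap. In hippocampus Celsr2 was again first, at 65.5 ± 35.4 CPM per kilobase, the others lay between 5.76 (Fat2) and 24.6 (Fat1), and all neighbours overlapped. Fat2 was therefore first of the members in cerebellum and last in both forebrain regions.

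**Figure D4:**
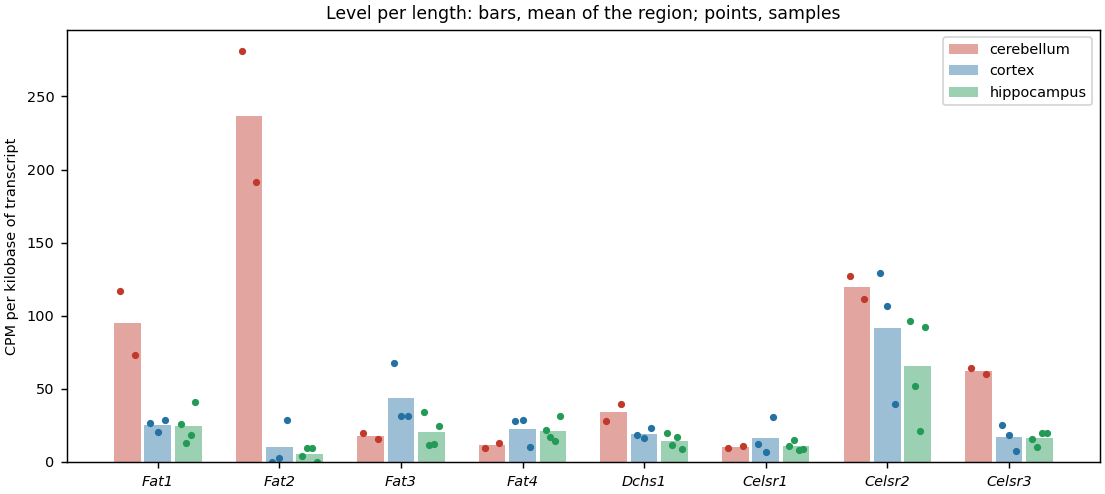
Level per length, in CPM per kilobase of the longest transcript, with bars for the mean of a region (cerebellum, cortex and hippocampus from left to right within each gene) and points for samples. Fat2 stands highest in cerebellum at a mean of 237, and Celsr2 is the highest in cortex and hippocampus at 91.7 and 65.5.

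The core planar polarity partners of the Celsr proteins had no call in the fit of 9 samples. Prickle2 passed under some alternatives, and Fzd3 passed only with 10 libraries kept apart. Of 29 listed genes, 6 were abundant enough to be tested, and 0 were higher and 0 lower in cerebellum (edgeR), where 7.67% of all tested rows were called. With so few tested genes, 0 calls cannot be told from that share. The median log2 fold change was -0.53 against 0.002 over all tested rows. Fzd3, the Frizzled receptor that works with Celsr3 in axon guidance, had 462 ± 102 CPM in cerebellum and 262 ± 172 CPM in forebrain (SD, n = 2 and 7), which gave a log2 fold change of 1.33 with an SE of 0.50 (adjusted p = 0.0892, edgeR). Prickle2, a cytoplasmic core component, had 103 ± 26.7 CPM in cerebellum and 382 ± 287 CPM in forebrain, which gave a log2 fold change of -1.58 (adjusted p = 0.0724, edgeR). Prickle2 passed with no replicate block (-1.74, adjusted p = 0.0341), with 10 libraries kept apart (0.0233), without cortex 3 (0.0423), without hippocampus 3 (0.0236) and without the 3 samples rich in predicted genes (-2.11, 0.00374). Fzd3 passed with 10 libraries (1.35, 0.0271). That setting counts hippocampus libraries 1 and 2 as separate samples, although their counts did not differ beyond the sampling noise. Daam2, a formin downstream of Dishevelled, had 109 ± 53.6 CPM in cerebellum and 192 ± 170 CPM in forebrain (log2 fold change -1.15, adjusted p = 0.276, edgeR).

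The downstream and related lists also had 0 calls in the fit of 9 samples, where 7.67% of all tested rows were called. Each list had few tested genes, so 0 calls cannot be told from that share. Of 46 genes of Fat and Dachsous ligands and the Hippo pathway with a row, 13 were tested and 0 passed in either direction, with a median log2 fold change of -0.16. Its most abundant members were Nckap1 and Cyfip2, of the WAVE actin regulator, which a Fat cadherin recruits in Drosophila, and the kinase Taok1, at 640 ± 103, 631 ± 32.5 and 288 ± 7.77 CPM in cerebellum and 977 ± 795, 845 ± 435 and 359 ± 214 CPM in forebrain. The fitted log2 fold changes were -0.20 for Nckap1, 0.21 for Cyfip2 and -0.36 for Taok1. Of 38 classical and type II cadherins and calsyntenins, 4 were tested and 0 passed (median -0.64). The most abundant of these, the calsyntenin Clstn1, had 299 ± 22.1 CPM in cerebellum and 419 ± 194 CPM in forebrain. Of 26 other adhesion G protein-coupled receptors, 6 were tested and 0 passed (median -0.40). They include the latrophilin Adgrl1, at 1688 ± 121 CPM in cerebellum and 1430 ± 1047 CPM in forebrain, and Adgrb2, at 1143 ± 220 CPM in cerebellum and 984 ± 453 CPM in forebrain. Their fitted log2 fold changes had the opposite sign to these means, at -0.51 for Adgrl1 and -0.08 for Adgrb2. The third most abundant, Adgrb1, had 345 ± 0.85 CPM in cerebellum and 527 ± 254 CPM in forebrain (log2 fold change -1.24, adjusted p = 0.0898, edgeR), and it passed with 10 libraries kept apart (-1.23, adjusted p = 0.0301). Of 15 catenins and junction partners, 7 were tested and 0 passed (median -0.05), among them β-catenin (Ctnnb1), at 368 ± 16.8 CPM in cerebellum and 639 ± 424 CPM in forebrain. Fitted log2 fold changes were -0.16 for Ctnnb1, -0.28 for Ctnnd2 and 0.62 for Pkp4. None of these 5 lists had a call between cortex and hippocampus in edgeR, where no row of the table passed.

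**Figure D5:**
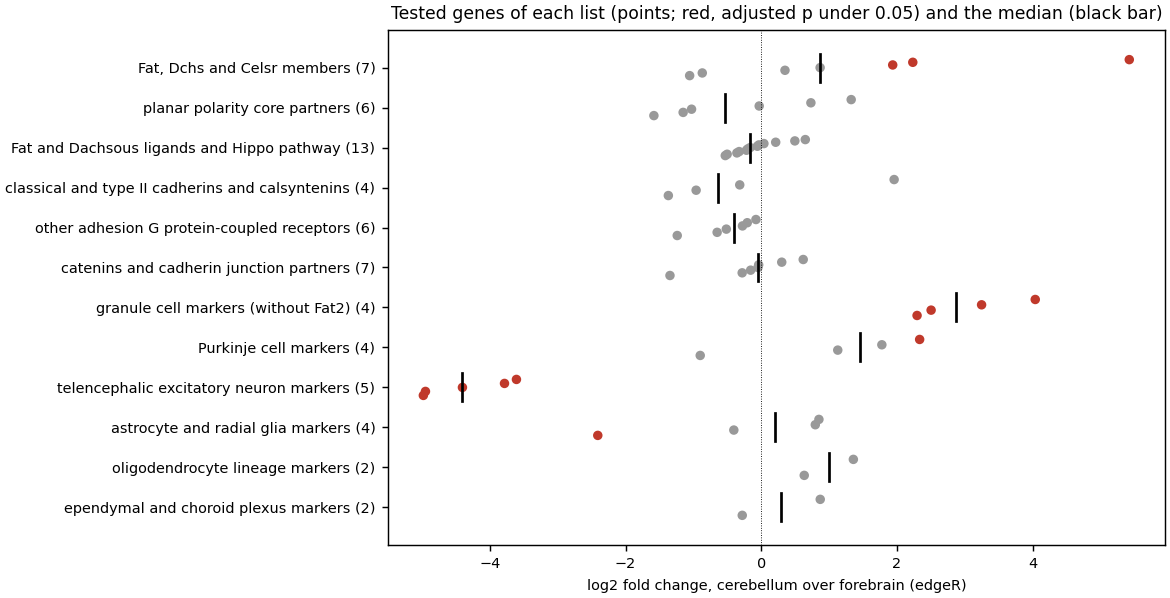
Log2 fold change, cerebellum over forebrain, of the tested genes of each list (points, red for an adjusted p under 0.05 in edgeR), with the list's median as a black bar and the number tested in parentheses. The giant cadherins span -1.05 to 5.42. The 5 adhesion and polarity lists hold no red point, with few genes tested in each and 7.67% of all tested rows called.

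Some markers of other cells also differed between the regions. Of the Purkinje cell markers, 4 of 10 were tested and 1 rose in cerebellum: Itpr1, the inositol trisphosphate receptor, by 2.33 on the log2 scale (SE 0.52, adjusted p = 0.00048, edgeR), and the list summed to 3504 ± 318 CPM in cerebellum and 1178 ± 238 CPM in forebrain. Of 12 telencephalic excitatory markers 5 were tested, and Camk2a, Nrgn, Bcl11b, Kcnh3 and Chrm1 fell in cerebellum, where they averaged 7.60 to 46.3 CPM. They had enough counts for the test through forebrain, so that each of them fell is no support. Of 4 tested astrocyte and radial glia markers 1 fell, the glutamate transporter Slc1a2, with a log2 fold change of -2.41 (adjusted p = 0.00511, edgeR). That list summed to 2252 ± 312 CPM in cerebellum and 3776 ± 1739 CPM in forebrain, of which Slc1a2 alone had 601 and 2905 CPM. The other tested genes were not called, with log2 fold changes of -0.40 (Slc1a3), 0.85 (Gfap) and 0.80 (Slc4a4), and the list's median was 0.20. Of the untested markers, Aqp4, Aldh1l1, Fabp7, Gdf10 and Vim had higher means in cerebellum. Gja1, Sox9 and Sox2 had lower means there. Oligodendrocyte lineage markers summed to 1043 ± 245 CPM in cerebellum and 655 ± 247 CPM in forebrain, with 0 of 2 tested genes called. Endothelial and microglial markers were too low for any to be tested. The Slc1a2 call ended with library totals alone (adjusted p = 0.254) and without cerebellum 1 (0.568), cerebellum 2 (0.611), cortex 1 (0.542), cortex 2 (0.0712), hippocampus 4 (0.0855) or hippocampus 5 (0.0554). The Itpr1 call ended with library totals alone (0.0769) and without cerebellum 1 (0.286), cerebellum 2 (0.203) or cortex 1 (0.183). Those of Camk2a (0.251), Nrgn (0.0564), Kcnh3 (0.360) and Chrm1 (0.760) ended without cerebellum 1, that of Bcl11b without cerebellum 2 (0.294), and that of Chrm1 also without cerebellum 2 (0.0662) and without cortex 1 (0.113). Without the filter on low counts, every marker call named here ended. The part of these markers in the members' values was not tested.

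Among the members, the levels that varied most alike over the 9 samples were those of Fat2 and Dchs1, with a Pearson r of 0.87 on log2 CPM, Fat1 and Fat2 (0.83), and Fat1 and Celsr3 (0.81). Fat2 and Fat4 ran opposite, with an r of -0.82, as did Fat1 and Fat4 (-0.77). These are descriptions over samples that differ in region and depth. Of all tested rows, those most like Fat2 were the netrin receptors Unc5b (r = 0.96) and Unc5c (0.93), with Arhgef33 (0.94), the synaptotagmin Syt2 (0.91) and the calcium pump Atp2b3 (0.91) beside them. Unc5c averaged 942 ± 164 CPM in the cerebellum samples, 73.6 ± 9.62 CPM in those of cortex and 83.5 ± 57.7 CPM in those of hippocampus (SD, n = 2, 3 and 4). The row most like Celsr3 was Grm4 (0.98), followed by the semaphorin receptor Plxnb2 and the zinc finger gene Zfp521 (both 0.94). Fat1 was most like Trim67, Cadps2 and the channel Trpm3 (each 0.90), and Dchs1 most like Cux1 (0.95), Unc5b (0.93) and Kmt2d (0.92).

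The other tested members had other nearest rows. Fat4 was most like Slc1a2 and Stum (both r = 0.96), which averaged 601 ± 83.4 and 17.9 ± 10.5 CPM in cerebellum and had higher means in both forebrain regions. Celsr2 was most like Ube3b, Pik3r3 and Mia3 (each 0.96). Fat3 was most like Dennd4a (0.86), Rusc2 (0.84) and Npepps (0.84), and without cortex 1, the sample with the highest Fat3 level, its r was 0.65 with Dennd4a and 0.70 with Npepps.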

How the data were processed

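RNA fragments bound by FMRP were measured in mouse brain tissue at postnatal day 13. Tissue was ground in liquid nitrogen and irradiated with 3 doses of 400 mJ at 254 nm, FMRP was immunoprecipitated, and libraries were made with a small RNA ligation kit, per the labels' protocols. The authors deposited raw fragment counts per gene symbol, whole numbers in 30986 rows for 11 libraries, and 0 sample columns were left unused. The build mm10, Bowtie 0.12.7 and Picard are named in the submitters' processing notes. Which program and annotation gave the counts, and how strand and duplicates were treated, is not given in the sources used here. Without strand, fragments of the members and of the genes annotated over Fat1, Fat3, Fat4, Celsr3 and Dchs1 cannot be told apart.

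CPM are counts divided by the library total, times 1000000. Hippocampus libraries 1 and 2 (chi-square per degree of freedom 1.03, p = 0.191, 1873 rows; other pairs of a region 1.51 to 22.1) were summed. All 9 samples entered 1 edgeR 4.0.16 quasi-likelihood fit (R 4.3.3; TMM, filterByExpr by region, the title code as a block, 4 residual degrees of freedom), adjusted by Benjamini-Hochberg over 1720 rows with a threshold of 0.05. Cerebellum was set against the mean of cortex and hippocampus, against each of them, and cortex against hippocampus. The SE, the size of the log2 fold change over the square root of F, is approximate. Intervals are exact Clopper-Pearson at 95% and, like the limit of 3 counts, cover counting error only. The fit was tested on simulated data made for 1720 genes, of which 1300 passed the filter between cerebellum and forebrain and 1564 between cortex and hippocampus. Among changed genes that passed, 86.4% of those changed by 2 on the log2 scale were called between cerebellum and forebrain, and 97.7% of those changed by 4. Between cortex and hippocampus 59.8% and 94.7% were called. Apart from these changes, all simulated samples had the same profile and no effect of the title code, so the shares do not give the power in the real samples. DESeq2 1.42.0, other scaling, filter and block settings and samples left out were alternatives. A further alternative kept 10 libraries apart and so counted hippocampus libraries 1 and 2 as separate samples, although they differed by no more than sampling noise. Log2 CPM for likeness used a prior count of 2.

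The members and lists were chosen with earlier results of these data known. Named were all 8 members, from each list the genes past the threshold and the 3 with the highest CPM among the polarity and adhesion lists, and the 5 rows most like Fat2 and 3 most like each other tested member, of which 1 is not reported here. Sequences and lengths came from GRCm38 with GENCODE M21.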

Additional observations from a re-analysis of the deposited data

Results flagged for a closer look

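The library whose title names cortex and whose tissue label names hippocampus held 30344 counts, of which 9.88% were on predicted genes, and was in no comparison. Each of 7 members stood there above 98.9 CPM, the level of 3 counts, which is why its values are given: Fat1 and Fat4 had 231 CPM each, Fat3 had 494 CPM, Celsr1 had 132 CPM, Celsr2 had 989 CPM, Celsr3 had 297 CPM and Dchs1 had 363 CPM. Fat2 had 3 counts, or 98.9 CPM. Its 86 member fragments were 34.9% Celsr2 and 3.49% Fat2. Celsr3 was slightly above the highest labelled forebrain sample, at 293 CPM. Dchs1 was further above it, at 252 CPM, and within the range of the cerebellum samples, 304 to 426 CPM, and the other members lay within the forebrain range. Dixon's test was run in the 4 hippocampus samples alone, and no sample stood apart from the others there. It was not run in cortex, where Fat3 had 1269 CPM in cortex 1 against 592 and 588 CPM in cortex 2 and cortex 3.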

How the results depend on the processing

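Directions of the called members held under every alternative run. The number of genes called between cerebellum and forebrain, 132, was 87 by DESeq2, 54 with library totals alone (37 higher, 17 lower; the median of all genes moved to 0.12, and to 0.24 between cortex and hippocampus), 1 without the filter on low counts, 156 with no replicate block (93 higher, 63 lower) and 185 with 10 libraries kept apart. It was 253 without the 3 samples rich in predicted genes and without the block, an alternative chosen after seeing the data in which Fat1 had a log2 fold change of 2.02 (adjusted p = 0.00085), Celsr3 of 1.90 (0.00199) and Dchs1 of 1.18 (0.0577). Leaving out samples gave 2 to 176: 2 without cerebellum 1, 17 without cerebellum 2, 15 without cortex 1 and 81 without hippocampus 1+2. Of the members, 0 were called without the filter, and 0 to 3 with a sample left out (0 without cerebellum 1 or cortex 1, 1 without cerebellum 2). Between cortex and hippocampus the gene count of 0 was 1 by DESeq2, 1 with 10 libraries and 0 to 1 with a sample left out. The cause of these changes was not tested.

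The title codes were checked as pairs: deviations from region means correlated with a median r of 0.133 within a code (8 pairs, -0.067 to 0.484) and -0.05 between codes (18 pairs). Deviations sum to 0 within a region, so these pairs are not independent. Those of the 2 cerebellum samples are mirror images, with an r of 0.149 and -0.149 with cortex 1. The contrast of the medians is therefore partly built in. Not every pair within a code was above 0.1, and the labels do not say that a code pairs samples. The block was part of the fit all the same, and without it the same number of members, 3, was called.

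With a sample left out, log2 fold changes between cerebellum and forebrain ran from 4.05 to 6.63 for Fat2, 2.07 to 2.39 for Fat1 and 1.74 to 2.31 for Celsr3. Changes near 0 that were never called turned sign. Between cortex and hippocampus, Fat4 was 0.22 with library totals, 0.18 without the filter and 0.040 without the 3 samples, Celsr3 was 0.17, 0.10 and 0.16, and Dchs1 was -0.16 with no replicate block, -0.052 with 10 libraries and -0.17 without the 3 samples. With a sample left out the ranges were -2.14 to 0.91 (Fat2), -0.26 to 0.21 (Fat4), -0.084 to 0.71 (Celsr2), -0.46 to 0.17 (Celsr3) and -0.25 to 0.41 (Dchs1). Between cerebellum and forebrain, Adgrb2 was 0.032 with library totals, 0.32 without the filter, 0.29 with no replicate block and 0.18 without the 3 samples, Adgrl1 was 0.22 and 0.18 under those last settings, Cyfip2 was -0.28 and -0.58, and Pkp4 was -0.20 without the 3 samples. Without the filter, Clstn2 was 0.033, Ctnnb1 0.24, Ctnnd2 0.12, Nckap1 0.23 and Taok1 0.022. With a sample left out the ranges were -0.11 to 0.067 (Adgrb2, and -0.21 without hippocampus 1+2), -0.57 to 0.39 (Clstn2), -0.74 to 0.90 (Ctnnb1), -0.71 to 0.59 (Ctnnd2), -0.53 to 1.60 (Cyfip2), -0.87 to 0.99 (Nckap1) and -0.47 to 0.15 (Taok1, and -0.68 without hippocampus 1+2). The r of Kmt2d with Dchs1 was 0.80 with library totals. Per kilobase of coding length, Fat3 came second in hippocampus.

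Depth limits the forebrain values: Fat2 rested on 0 to 16 counts there, and 10 counts were 840 CPM in cortex 3.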
